A study of Mus musculus with 12 samples.

Results

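The 7 genes described here encode the CXCL12 chemokine system and the reelin system, both of which guide migrating neurons. They were picked by symbol from the 25674 genes of the deposited count table: the receptors Cxcr4 and Ackr3, their ligand Cxcl12, the secreted protein gene Reln, the reelin receptors Lrp8 and Vldlr, and the adaptor Dab1. All 7 were present in the table. The set was proposed with differences between the genotypes already known, so those differences are given as a description and carry no test of their own.

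CXCL12 is a secreted chemokine that draws cells along its gradient through CXCR4, a receptor coupled to inhibitory G proteins. ACKR3 binds the same ligand, signals through arrestins rather than G proteins, and clears CXCL12 from the surroundings of a cell. Reelin is a large extracellular protein that binds the lipoprotein receptors ApoER2 (the product of Lrp8) and VLDLR, after which the adaptor DAB1 is phosphorylated inside the cell and passes the signal to the cytoskeleton. Mice without reelin, without DAB1 or without both receptors have misplaced neurons in layered brain regions.

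RNA was measured in spiral ganglion neurons, the cells that connect the cochlea with the brainstem, to find what changes when the LIM homeodomain transcription factor ISL1 is removed. Control embryos were Neurod1Cre; Rosa26tdTOM, and the other group was Neurod1Cre;Isl1loxP/loxP;Rosa26tdTOM, labelled Isl1CKO, with 6 samples each. Both groups carried Cre, from a transgene with Neurod1 regulatory sequence, and the red reporter tdTomato, so deletion and labelling both depend on Neurod1 activity. By the protocol, each sample held 100 reporter-positive cells sorted at E14.5, a stage in mid-gestation, from the ganglia of 1 embryo of either sex. The background was mixed C57BL/6 and sv129.

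Library totals ran from 11895603 to 13857480 counts. A level of 3 counts, taken here as the detection floor, corresponded to 0.219 to 0.250 CPM, the unit of level used throughout: counts divided by the scaled library total, as edgeR gives them. The mean level of Isl1 itself was 1538 ± 217 CPM with the Control label and 1391 ± 184 CPM with the Isl1CKO label (SD, n = 6). The log2 difference was -0.15 with a standard error of 0.11 (edgeR's quasi-likelihood test, adjusted p = 0.460). Counts over the whole gene therefore did not separate the groups, and the genotype rests on the labels. General neuronal genes were abundant in all 12 libraries, with a summed level of 10 markers between 10720 and 14383 CPM. Of these 10 markers, 2 were lower in the libraries labelled Isl1CKO in that test, Gata3, a transcription factor of auditory neurons (1474 and 225 CPM), and Elavl4 (1708 and 1219 CPM), and 2 were higher, Stmn2 (1897 and 2760 CPM) and Neurod1 (1471 and 2715 CPM). Libraries Isl1CKO 2, 3 and 5 held both Xist, at 62.9 to 132 CPM, and Y-linked transcripts, at a mean of 35.7 to 87.3 CPM. In the other 9 libraries the lower of these values did not exceed 0.426 CPM. Results are therefore also given without those 3 libraries. Macrophage marker RNA varied between libraries of both groups, and its values stand beside the results below.

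**Figure D1:**
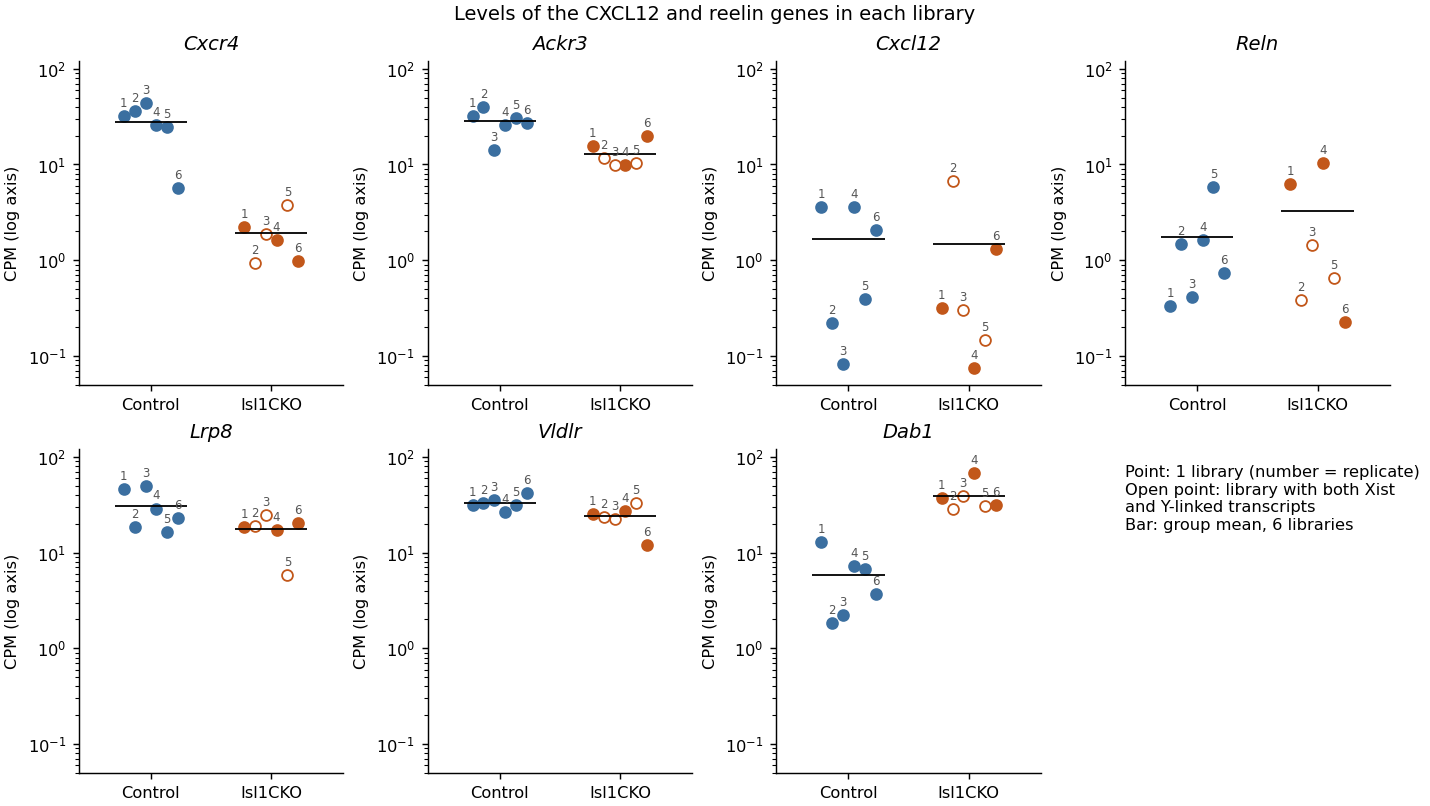
Each panel plots 1 gene, with its level in CPM on a log axis and 1 point per library. Numbers give the replicate, open points are the 3 libraries with both Xist and Y-linked transcripts, and bars are means of 6. Cxcr4 and Dab1 are the panels in which the groups do not overlap.

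The largest differences were in Cxcr4 and Dab1, in opposite directions. The sequences before their annotated starts, and before that of Ackr3, are shown because these were the members whose RNA differed most between the genotypes. Each line gives the 250 bases upstream of a RefSeq start on GRCm38.p6, read 5′ to 3′ along the gene, with capitals at TAAT, the core letters bound by many homeodomain proteins, and at TATAAA, the TATA box, both searched on both strands.
Cxcr4, chr1:128592300-128592549, minus strand: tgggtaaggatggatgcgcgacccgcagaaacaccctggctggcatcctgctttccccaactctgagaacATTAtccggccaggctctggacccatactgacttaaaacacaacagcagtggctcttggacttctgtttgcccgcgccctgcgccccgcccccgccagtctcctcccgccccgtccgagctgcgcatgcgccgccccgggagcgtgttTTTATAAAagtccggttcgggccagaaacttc
Ackr3, chr1:90203730-90203979, plus strand: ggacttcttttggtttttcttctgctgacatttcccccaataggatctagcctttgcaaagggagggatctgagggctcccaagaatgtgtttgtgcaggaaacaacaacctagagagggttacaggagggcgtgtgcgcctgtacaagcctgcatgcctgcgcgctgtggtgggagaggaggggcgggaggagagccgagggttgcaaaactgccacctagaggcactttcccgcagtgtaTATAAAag
Dab1, first start, chr4:103619250-103619499, plus strand: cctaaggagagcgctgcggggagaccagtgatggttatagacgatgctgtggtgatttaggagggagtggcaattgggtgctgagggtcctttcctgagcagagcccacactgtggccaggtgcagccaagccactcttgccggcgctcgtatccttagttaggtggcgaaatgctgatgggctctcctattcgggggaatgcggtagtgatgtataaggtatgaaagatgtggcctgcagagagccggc
Dab1, second start, chr4:104367288-104367537, plus strand: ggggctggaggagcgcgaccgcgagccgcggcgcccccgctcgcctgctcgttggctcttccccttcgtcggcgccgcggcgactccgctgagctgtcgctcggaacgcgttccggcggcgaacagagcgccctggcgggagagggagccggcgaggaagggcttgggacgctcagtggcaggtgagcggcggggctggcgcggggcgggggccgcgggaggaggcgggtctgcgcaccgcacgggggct

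The Cxcr4 window held 1 TAAT, 180 bases before the start and on the opposite strand, and a TATAAA 30 bases before the start that overlaps a copy on the other strand. The Ackr3 window held a TATAAA 8 bases before the start and 0 TAAT. Neither of the 2 Dab1 windows held TAAT or TATAAA. Their base composition differed, with 56.4% G and C before the first start and 78% before the second. Among the other members, the first of 2 Vldlr windows was the richest, with 7 copies of TAAT, some of them overlapping. Of 32851 RefSeq windows of this length, 54.9% held TAAT on either strand and 12.4% held TATAAA. The longer sequence CTAATG, which contains TAAT, was in 6.36% of all windows and in 0 of the members' windows. These matches describe letters only.

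Cxcr4 (ENSMUSG00000045382, chromosome 1, 128588199 to 128592293, minus strand, protein coding, GRCm38) was far lower in the libraries labelled Isl1CKO. In controls its lowest, median and highest levels were 5.64, 28.7 and 43.6 CPM, and in the libraries labelled Isl1CKO they were 0.931, 1.76 and 3.79 CPM. All 6 labelled libraries lay below all 6 controls. Control 6, with 77 counts, was the low control, and Isl1CKO 5, with 52 counts, was the labelled library nearest to it. The other 5 controls held at least 24.8 CPM. Control and Isl1CKO means stood at 28.0 ± 13.0 and 1.91 ± 1.05 CPM (SD, n = 6), giving a log2 difference of -3.86 with a standard error of 0.46, or 14.6-fold. Every labelled library remained above the detection floor. In bulk libraries, fewer cells that make an RNA and less of it per cell cannot be told apart.

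Ackr3 (ENSMUSG00000044337, chromosome 1, 90203980 to 90216751, plus strand, protein coding), the scavenging receptor, was also lower, by a smaller amount. Its lowest, median and highest levels were 14.2, 28.9 and 39.7 CPM in controls and 9.79, 11.1 and 19.7 CPM in the libraries labelled Isl1CKO. The groups overlapped through control 3, the lowest control, and Isl1CKO 1 and 6, the highest labelled libraries. Control and Isl1CKO means stood at 28.3 ± 8.46 and 12.9 ± 4.03 CPM (SD, n = 6), giving a log2 difference of -1.14 with a standard error of 0.25. Without the 3 libraries holding transcripts of both sexes it was -0.91.

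Within libraries, the RNAs of the receptors were in a lower ratio of Cxcr4 to Ackr3 with the Isl1CKO label. Levels of different genes are compared per kilobase of exon, since longer transcripts give more fragments. Exons were merged over all annotated transcripts of a gene, and the lengths of the transcripts present in these cells were not measured. The ratio of Cxcr4 to Ackr3 on this scale was above 1 in 5 of 6 controls and in 0 of 6 libraries labelled Isl1CKO. Its lowest, median and highest values were 0.384, 1.76 and 5.70 in controls and 0.0929, 0.283 and 0.678 in the labelled libraries. The ranges overlapped because control 6 held a ratio of 0.384.

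Cxcl12 (ENSMUSG00000061353, chromosome 6, 117168535 to 117181367, plus strand, protein coding), the ligand of both receptors, was scarce and uneven. Its lowest, median and highest levels were 0.0834, 1.22 and 3.57 CPM in controls and 0.0747, 0.309 and 6.75 CPM in the labelled libraries. Only 5 of 12 libraries held 10 counts or more, and 4 lay at or under the floor of 3 counts. Cxcl12 did not pass the filter on low counts, so no fitted difference is given for all 12 libraries. Isl1CKO 2 alone held 87 counts, the most of any library. Markers of endothelial cells, a common source of this ligand, were low: Emcn and Cldn5 held at most 3 counts in any library, and the summed level of 7 endothelial markers ran from 0.512 to 3.11 CPM in controls and from 0.610 to 34.3 CPM in the labelled libraries. Isl1CKO 2, with the highest Cxcl12 level, had the second highest endothelial sum, 5.98 CPM. Isl1CKO 3, with the highest sum, had 0.301 CPM of Cxcl12. The summed level of 10 mesenchyme markers was highest in Isl1CKO 2, at 122 CPM. Only 4 of these 10 passed the filter on low counts, and most of the sum came from the transcription factor genes Pou3f4 and Tbx18. Pou3f4 had means of 52.9 CPM in controls and 27.4 CPM in the labelled libraries, and Tbx18 had 1.09 and 39.5 CPM. In controls 1, 4 and 6, with 2.05 to 3.57 CPM of Cxcl12, this mesenchyme sum was 67.8 to 84.5 CPM. In controls 2, 3 and 5, with at most 0.396 CPM of Cxcl12, it was 38.6 to 55.2 CPM. Isl1CKO 3, low in Cxcl12, had a mesenchyme sum of 104 CPM. The part of endothelial or mesenchyme RNA in the Cxcl12 levels was not tested.

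The reelin adaptor gene Dab1 (ENSMUSG00000028519, chromosome 4, 103619359 to 104744844, plus strand, protein coding) was higher in the libraries labelled Isl1CKO, with a lowest, median and highest level of 28.3, 34.4 and 68.0 CPM. In controls these were 1.85, 5.20 and 13.0 CPM. All 6 labelled libraries lay above all 6 controls. Isl1CKO 4 and control 1 were the high libraries of their groups. Isl1CKO and control means stood at 39.1 ± 14.8 and 5.79 ± 4.17 CPM (SD, n = 6), giving a log2 difference of 2.76 with a standard error of 0.42, or 6.76-fold.

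The fitted differences of the reelin receptor genes were smaller, and both were negative. Lrp8 (ENSMUSG00000028613, chromosome 4, 107802261 to 107876840, plus strand, protein coding) had a lowest, median and highest level of 16.2, 25.8 and 49.8 CPM in controls and 5.84, 18.6 and 24.7 CPM in the labelled libraries. The groups overlapped, with 1 of 6 labelled libraries, Isl1CKO 5, below every control. The log2 difference was -0.80 with a standard error of 0.34. Vldlr (ENSMUSG00000024924, chromosome 19, 27216484 to 27254231, plus strand, protein coding) had corresponding levels of 26.7, 32.0 and 41.6 CPM and of 12.0, 24.5 and 32.9 CPM. Its log2 difference was -0.47 with a standard error of 0.20, and 4 of 6 labelled libraries lay below every control. Vldlr was the steadiest member, with a within-group SD of 0.38 on the log2 scale, close to the median of 0.39 over all tested genes. The ratio of Vldlr to Lrp8 per kilobase had a median of 1.41 in controls and 1.38 in the labelled libraries, with ranges of 0.707 to 2.00 and 0.619 to 5.89. Neither receptor was clearly the more abundant in controls, where Vldlr exceeded Lrp8 in 3 of 6 libraries.

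Reln (ENSMUSG00000042453, chromosome 5, 21884454 to 22344702, minus strand, protein coding), the ligand, was low and erratic in both groups. Its lowest, median and highest levels were 0.332, 1.11 and 5.87 CPM in controls and 0.229, 1.04 and 10.5 CPM in the labelled libraries. Control 5, Isl1CKO 1 and Isl1CKO 4 stood above the rest, and the groups overlapped. It passed the filter with 7 of 12 libraries at 10 counts or more. The log2 difference was 0.89 with a standard error of 0.92, and it was 1.80 without control 5, 0.039 without Isl1CKO 4 and -0.69 with macrophage and glial marker sums as covariates. In the 6 libraries with low macrophage sums, described below, it was -2.01. Its within-group SD of 1.68 on the log2 scale was larger than that of 97.0% of tested genes. Reln shares 246 exon bases with the antisense gene Gm10475, and the use of strand in counting is not given in the sources used here.

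**Figure D2:**
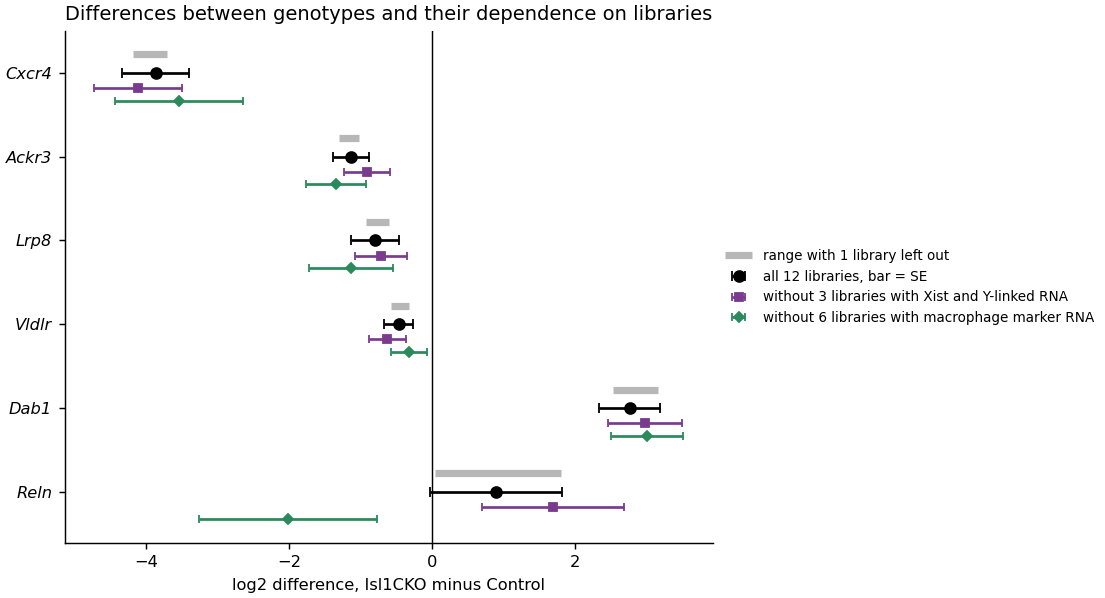
Points give the log2 difference, Isl1CKO minus Control, for the 6 genes that passed the filter on low counts, with bars of 1 standard error, grey bars for the range with 1 library left out, and coloured points for fits on fewer libraries. Cxcr4 and Dab1 stayed on opposite sides of 0 in each fit, and Reln changed sign.

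Of the 7 members, 6 passed the filter and 3 of these, Cxcr4, Ackr3 and Dab1, passed an adjusted p of 0.05 in edgeR's quasi-likelihood test over all genes. Of all 14813 tested genes, 10.2% did so, 5.19% lower and 5.01% higher. The groups did not overlap for 2 members, Cxcr4 and Dab1, as for 6.78% of all tested genes. Since the members were chosen with this contrast known, nothing is read from these counts. Ackr3 left the count without the libraries Isl1CKO 2, 3 and 5, at a log2 difference of -0.91.

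With those 3 libraries left out, the log2 difference was -4.11 for Cxcr4, with 0.991 to 2.22 CPM in the other 3 labelled libraries. It was 2.97 for Dab1, with 31.4 to 68.0 CPM. For Lrp8 it was -0.71 and for Vldlr -0.63. The direction of each of these 4 differences was the same in all 21 other fits made.

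Ordered by level per kilobase, Cxcr4 led in controls at 15.5 ± 7.20 CPM per kilobase, above Ackr3 at 8.46 ± 2.53 (SD, n = 6) in 5 of 6 libraries. This order rests on the exon lengths used, 1.81 kb for Cxcr4, 3.35 for Ackr3, 10.1 for Vldlr and 10.5 for Lrp8. Before division by length, control means were 28.0 CPM for Cxcr4, 28.3 for Ackr3, 33.1 for Vldlr and 30.4 for Lrp8. Ackr3 exceeded Vldlr, at 3.29 ± 0.496, in 6 of 6 libraries, while Vldlr and Lrp8, at 2.89 ± 1.37, did not differ beyond their spread. Dab1 followed at 0.732 ± 0.528, below Lrp8 in 6 of 6 libraries, and Cxcl12 and Reln came last, at 0.201 ± 0.201 and 0.0734 ± 0.0881, without a clear order between them. In the libraries labelled Isl1CKO, Dab1 moved from the fifth to the first place, at 4.94 ± 1.87 CPM per kilobase, and exceeded Ackr3, at 3.85 ± 1.20, in 5 of 6 libraries. Vldlr and Lrp8 followed at 2.38 ± 0.686 and 1.66 ± 0.598. Cxcr4 moved from the first to the fifth place, at 1.06 ± 0.581, below Lrp8 in 5 of 6 libraries. Cxcl12 and Reln, at 0.181 ± 0.320 and 0.136 ± 0.177, again overlapped.

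**Figure D3:**
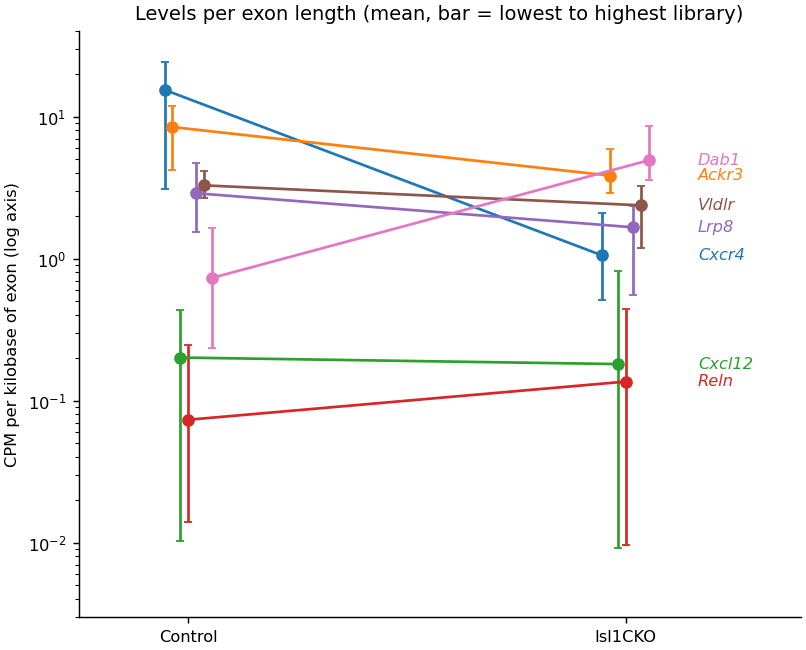
Lines join the mean level per kilobase of exon in the 6 control and 6 Isl1CKO libraries on a log axis, with bars from the lowest to the highest library. Cxcr4 goes from the first place to the fifth and Dab1 from the fifth to the first.

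CXCR4 is also made by macrophages, so macrophage markers were read in each library. Of 12 such markers 11 were tested and 0 passed the threshold in either direction. All 11 had a higher mean in the libraries labelled Isl1CKO, with log2 differences of 0.39 to 2.29. The summed level of the 12 ran from 3.48 to 416 CPM in controls, with a median of 10.2 CPM, and from 2.17 to 806 CPM in the labelled libraries, with a median of 137 CPM. Control 3, with the highest Cxcr4 level, had a macrophage sum of 11.8 CPM, and Isl1CKO 4, with the highest macrophage sum, had 1.64 CPM of Cxcr4. Among the 4 controls and 2 labelled libraries with a macrophage sum under 50 CPM, Cxcr4 was 5.64 to 43.6 CPM and 0.931 to 3.79 CPM. The log2 difference in these 6 libraries, a comparison chosen after seeing the data, was -3.54, and Cxcr4 did not pass the threshold there. Ackr3, at -1.34, did not pass it either. The 2 labelled libraries in this comparison, Isl1CKO 2 and 5, are among those that held both Xist and Y-linked transcripts. Isl1CKO 1, 4 and 6, which did not, had macrophage sums of 158, 806 and 277 CPM. No labelled library was therefore free of both features.

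Dab1 was highest within its group in the library with the most macrophage RNA, at 13.0 CPM in control 1 and 68.0 CPM in Isl1CKO 4. In the libraries with a macrophage sum under 50 CPM it was 1.85 to 6.74 CPM in controls and 28.3 and 30.4 CPM in Isl1CKO 2 and 5, a log2 difference of 3.01. Summed markers of glia, at 32.2 to 188 CPM in controls and 35.4 to 263 CPM in the labelled libraries, overlapped between the groups, and 0 of 6 tested glial markers passed the threshold. With the macrophage and glial sums as covariates, the log2 difference was -3.68 for Cxcr4 and 2.35 for Dab1. Of 4 tested mesenchyme markers, 2 were higher, Tbx18 (1.09 and 39.5 CPM) and Col3a1 (2.66 and 14.1 CPM). The other 2 did not pass the threshold, Col1a2 (1.30 and 4.67 CPM) and Pou3f4 (52.9 and 27.4 CPM). The sum of 10 markers, most of it from Pou3f4 and Tbx18, ran from 38.6 to 84.5 CPM in controls and from 72.0 to 122 CPM in the labelled libraries. Their part in the members' differences was not tested. Hair cell markers summed to 253 to 538 CPM and 293 to 580.0 CPM, most of it from Myo6 (407 and 410 CPM). Of 4 tested, 1 was lower, Ccer2 (36.7 and 3.83 CPM, without overlap).

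**Figure D4:**
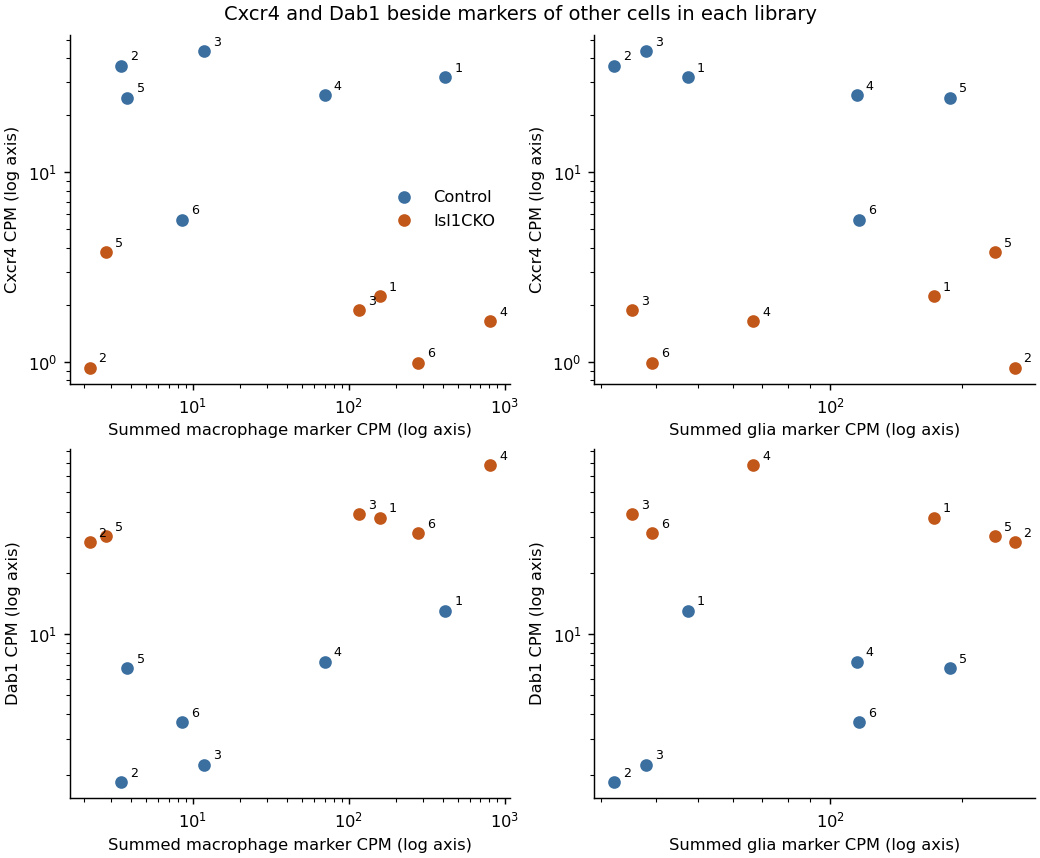
Cxcr4 (top) and Dab1 (bottom) levels are plotted against the summed level of macrophage (left) and glia (right) markers, 1 point per library on log axes with the replicate number. All 6 labelled libraries lie below all controls in Cxcr4 and above them in Dab1, while the marker sums of the groups overlap.

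Within groups the members did not move together detectably. After the genotype means were subtracted, log2 levels of the 21 pairs of members over 12 libraries gave a largest absolute Pearson's r of 0.557, between Cxcr4 and Cxcl12 (r = -0.557, permutation p = 0.0598, adjusted p = 0.814 over the 21 pairs; Spearman's rho = -0.497, permutation p = 0.120, adjusted p = 0.785). Without the 2 libraries farthest from the median of Cxcr4, that r was -0.634. Cxcr4 and Ackr3, which share a ligand, had an r of -0.236 (permutation p = 0.459, adjusted p = 0.830) and a rho of -0.154 (permutation p = 0.644, adjusted p = 0.923), with r = -0.312 without the 2 such libraries. For Lrp8 and Vldlr, which share reelin, r was -0.383 (permutation p = 0.242, adjusted p = 0.830) and rho was -0.273 (permutation p = 0.391, adjusted p = 0.911), with r = -0.165 without the 2 libraries farthest in Lrp8.

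Among 10866 other genes with a mean of at least 5 CPM, those most like each member in this within-group pattern were named as a description. Nearest to Cxcr4 was Rab3c, a small GTPase of secretory vesicles, with Pearson's r of 0.941 over 12 libraries. Next were Sdc2, a heparan sulphate proteoglycan, at 0.891, and Sesn1, a stress response gene, at 0.878. The mean of Rab3c was 69.3 CPM in controls and 63.7 CPM in the labelled libraries, so its likeness to Cxcr4 did not extend to the difference between groups. Sesn1 was higher in the labelled libraries (27.0 and 57.2 CPM, edgeR adjusted p = 0.0102), opposite to Cxcr4. Bhlhe22, near Vldlr, was lower (19.7 and 3.83 CPM, edgeR adjusted p = 9.15e-04). Slc37a3 (r = 0.943), Nr1d1 (0.907) and Adipor1 (0.900) were nearest to Ackr3. Madd (r = 0.911), Selenop (0.888) and Anapc7 (0.879) were nearest to Dab1, each highest relative to its group in control 1. Lrp8 was nearest to Dnajc13, Map4k3 and Aak1 (r = 0.917, 0.890 and 0.890), Vldlr to Fbxl12, Grik3 and Bhlhe22 (0.917, 0.894 and 0.863), and Reln to Rtel1, Zfp229 and Ttpal (0.863, 0.844 and 0.837). These are the highest of many values over libraries that also share depth and cell makeup.

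The partners of these genes inside the cell were read from lists of pathway genes. Of 48 genes around CXCL12 receptor signalling (G proteins, arrestins, receptor kinases, downstream kinases and other ligands), 38 were tested. In edgeR's quasi-likelihood test 3 passed an adjusted p of 0.05, or 7.89%, all lower, and 35 did not, against 10.2% of all tested genes. The median log2 fold change was -0.024, against 0.0045 over all tested genes. Mapk3, which encodes the kinase ERK1, fell from 194 ± 7.46 to 108 ± 20.9 CPM (SD, n = 6), with a log2 change of -0.84 and an edgeR adjusted p of 1.90e-04, without overlap. Stat3, a transcription factor activated by cytokine and chemokine receptors, fell from 94.3 ± 12.2 to 64.8 ± 13.5 CPM (SD, n = 6; edgeR adjusted p = 0.0302). Its call was lost in 6 of 21 other fits, among them those without control 2, control 4 or Isl1CKO 5 alone. Gnao1, a G protein alpha subunit, fell from 251 ± 35.9 to 185 ± 24.8 CPM (SD, n = 6; edgeR adjusted p = 0.0157). Without Isl1CKO 2, 3 and 5 the count was 1, Mapk3, and without Isl1CKO 3 alone it was 5. Over the whole table, 767 of 16222 and 1517 of 15164 tested genes were called in these fits.

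Of 49 partners of the reelin pathway, 42 were tested and 8 passed, or 19%, against 10.2% of all tested genes. Of these 8, 5 were lower and 3 higher, and 34 genes did not pass the threshold. The median log2 fold change was 0.11. App, whose product binds DAB1, rose most clearly, from 139 ± 19.6 to 343 ± 55.2 CPM (SD, n = 6), with a log2 change of 1.30 and an edgeR adjusted p of 5.11e-06. Pik3r3, a regulatory subunit of PI3 kinase, rose from 170 ± 44.1 to 278 ± 42.8 CPM and Plat, the protease tissue plasminogen activator, from 22.9 ± 8.17 to 44.8 ± 11.2 CPM (SD, n = 6; edgeR adjusted p of 0.0121 and 0.0165). Efnb2, the membrane ligand ephrin-B2, fell from 180 ± 42.7 to 90.2 ± 17.9 CPM (SD, n = 6; edgeR adjusted p = 7.05e-04). Crk, an adaptor recruited by phosphorylated DAB1, fell from 85.9 ± 7.07 to 62.7 ± 4.30 CPM (SD, n = 6; edgeR adjusted p = 0.00377). Rnf7, part of the ubiquitin ligase that removes active DAB1, fell from 157 to 197 CPM in the 6 controls to 122 to 148 CPM in the labelled libraries (edgeR adjusted p = 0.00562). Mapt, which encodes tau, fell from 739 ± 109 to 521 ± 73.9 CPM (SD, n = 6; edgeR adjusted p = 0.00759). The fifth lower gene was Clu, a secreted chaperone, named after its values were seen, at 30.6 and 11.8 CPM (edgeR adjusted p = 0.0411). Its call was lost in 12 of 21 other fits, and with 1 library left out it was kept only without control 3 or Isl1CKO 1. Without Isl1CKO 2, 3 and 5 the count was 2, App and Efnb2, with 1 in each direction. Over the whole table, 767 of 16222 tested genes were called in that fit.

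Of 40 genes of the motors and cytoskeleton that move the nucleus and leading process, all 40 were tested. Of these, 4 passed, or 10%, against 10.2% of all tested genes, with 2 lower, 2 higher and 36 not past the threshold. The median log2 fold change was 0.037. Cep85l, a centrosomal protein gene, fell from 129 ± 23.6 to 49.6 ± 1.78 CPM (SD, n = 6), with a log2 change of -1.38 and an edgeR adjusted p of 1.45e-06. Rnd3, an atypical small GTPase, rose from 228 ± 37.5 to 546 ± 79.7 CPM (SD, n = 6), with a log2 change of 1.26 and an edgeR adjusted p of 8.26e-06. The groups did not overlap for either. Its relative Rnd2 rose from 10.1 ± 4.80 to 19.6 ± 2.91 CPM and Dctn1, of the dynein activator dynactin, fell from 215 ± 33.8 to 137 ± 37.0 CPM (SD, n = 6; edgeR adjusted p of 0.0444 and 0.0336). The calls of Rnd2 and Dctn1 were lost in 14 and 6 of 21 other fits, and the count was 2 without control 5, Isl1CKO 4 or Isl1CKO 6. Those 3 fits called 1327, 1265 and 1242 genes over the whole table. Cep85l, App, Stat3, Gnao1, Rnd2 and Pik3r3 share exon bases with another annotated gene, so their counts are uncertain.

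**Figure D5:**
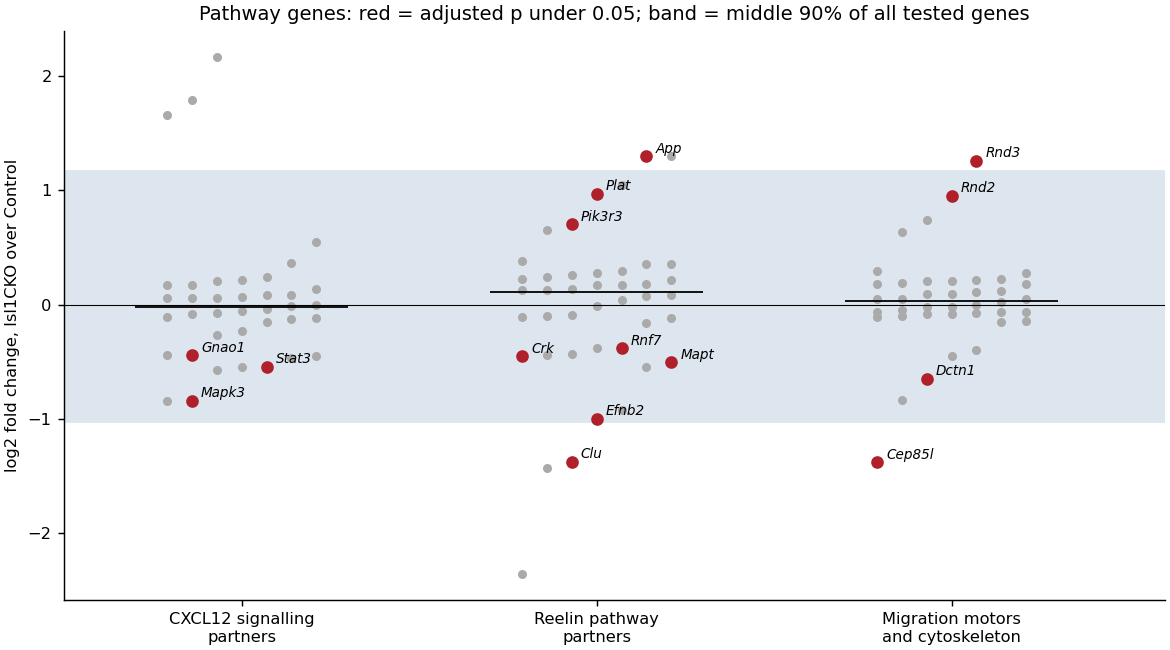
Each point is the log2 fold change, Isl1CKO over Control, of a tested gene from 1 of the 3 pathway lists, with red for an adjusted p under 0.05, a black line at the list median and a band over the middle 90% of all tested genes. App, Rnd3, Cep85l and Clu are the named genes outside the band, which runs from -1.03 to 1.17.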

How the data were processed

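RNA was counted in 12 libraries, 6 per genotype, labelled as separate embryos in the protocol although a tag calls the numbers technical replicates. P-values measure the spread between these samples. The authors deposited 1 table of raw whole-number counts per Ensembl gene, 1 column per sample. Per the submitters' processing notes, cutadapt 1.18, Bowtie 1.2.2, STAR 2.7.0c, featureCounts and GRCm38.p6 were used. Their order, the annotation and the use of strand are not given in the sources used here. Columns were matched by name and 0 were left unmapped. Symbols, positions and summed exon lengths came from GENCODE M21, which located 25627 of 25674 genes.

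Counts were analysed with edgeR 4.0.16 in R 4.3.3: filterByExpr with a minimum count of 10, TMM scaling, and the robust quasi-likelihood F-test with Benjamini-Hochberg adjustment over all tested genes and a threshold of 0.05. The standard error is the absolute log2 fold change divided by the square root of F. Floors are 3 counts and cover counting error only. Likeness used log2 CPM with a prior count of 2, and permutation tests drew 100000 resamples, 2-sided, within groups. Alternatives were DESeq2 1.42.0, limma-voom (limma 3.58.1), other scalings, no filter, a replicate block, marker covariates and fits without libraries. On simulated data of 14422 genes, the edgeR test recovered 58% of genes altered 2-fold and 79% of those altered 4-fold, with 10 false among 147 calls. No pair of the 66 library pairs agreed within sampling noise (chi-square per degree of freedom at least 19.1).

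The members and lists were chosen with earlier results of these data known. The rule for naming genes took the members, Isl1, up to 4 genes per direction with the smallest p among those called in each pathway list, and the 3 genes most like each member. Marker lists for neurons, macrophages, glia, mesenchyme, endothelium, hair cells and erythroid cells (1 of 6 genes in the table, Alas2, at up to 5.87 CPM) were also read. Some further marker results are not reported here.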

Additional observations from a re-analysis of the deposited data

Results flagged for a closer look

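In 7 of 44 group values checked for the genes named above, the highest or lowest library was separated from its 5 group mates by a gap past Dixon's 95% critical value. Chance alone would give about 2.2 such values. Isl1CKO 2 held 6.75 CPM of Cxcl12, and the next labelled library 1.30 CPM. Control 5 held 5.87 CPM of Reln, and the next control 1.63 CPM. Isl1CKO 4 held 68.0 CPM of Dab1, and the next labelled library 39.1 CPM. Control 3 held 319.9 CPM of Gnao1, against 251 CPM in the next control. Isl1CKO 3 held 38.5 CPM of Stat3, below the next labelled library at 65.6 CPM. Isl1CKO 6 held 126 CPM of Efnb2, above the next at 86.8 CPM. Control 1 held 59.9 CPM of Clu, and the next control 30.9 CPM.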

How the results depend on the processing

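The members' differences moved by less than the within-group SD in 125 of 126 values from other settings. The exception was Reln, whose log2 difference was -2.01 without the 6 libraries with macrophage marker sums of 50 CPM or more. Those 6 libraries were left out only after seeing the data, and the fit then had 4 against 2 libraries. It called 530 genes over the whole table in place of 1511, 1 CXCL12 signalling partner in place of 3, 4 reelin partners in place of 8 and 2 motor and cytoskeleton genes in place of 4. Without the 3 libraries with Xist and Y-linked transcripts, the counts were 767 over the whole table, 1 for CXCL12 signalling and 2 for reelin. The DESeq2 Wald test called 5 CXCL12 signalling partners, 11 reelin partners and 5 motor and cytoskeleton genes. Over the whole table it called 2100 of 14813 tested genes. With 1 library left out, counts ran from 1178 to 1517 over the whole table, from 2 to 5 for CXCL12 signalling, from 7 to 10 for reelin and from 2 to 5 for motors and cytoskeleton. The named pathway genes kept their direction in all 315 other values and lost their call in 51. With the replicate number as a block, 5 CXCL12 signalling partners and 1450 genes over the whole table were called. The numbers did not clearly pair the samples: same-numbered libraries had correlations of -0.056 to 0.152 in their deviations from the group means, over 0.1 in 1 of 6 pairs. Among the controls, 2 of 6 correlated best with the labelled library of their own number. Low correlations of this kind cannot exclude a batch shared by number. Depth limits Cxcl12, at or under 3 counts in 4 libraries.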

Other observations

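The families around the members were read by symbol after seeing the data. Of 27 other chemokine and chemokine receptor genes in the table, 6 were tested, and 3 exceeded 1 CPM in every library: Ackr1, Ccl27a and Ccl25. Ackr1, a scavenging chemokine receptor related to Ackr3, was at 8.59 ± 3.19 CPM in controls and 23.3 ± 4.28 CPM in the libraries labelled Isl1CKO (SD, n = 6), without overlap (log2 fold change 1.44, edgeR adjusted p = 0.00144). It shares 361 exon bases with Cadm3 on the same strand, so its reads cannot be assigned with certainty. The chemokine ligand genes Ccl27a (29.5 and 28.3 CPM) and Ccl25 (12.4 and 12.8 CPM) did not pass the threshold (edgeR adjusted p of 0.856 and 0.923).

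Of 12 other genes of the lipoprotein receptor family, 10 were tested and 0 passed in edgeR's quasi-likelihood test. Lrp12 was at 61.1 ± 7.37 and 73.8 ± 9.06 CPM (SD, n = 6; edgeR adjusted p = 0.144). Lrp6, a receptor for WNT ligands, was at 43.2 ± 3.13 and 45.2 ± 18.1 CPM (SD, n = 6; edgeR adjusted p = 0.881).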
